A study of Mus musculus with 2 samples.

Results

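Open chromatin was examined at the genes that encode histone lysine methylases and demethylases in mouse bone marrow-derived mast cells, the IgE-binding granulocytes grown from marrow in interleukin 3. The members were all protein-coding genes whose symbols begin with Kdm, Kmt or Setd, together with Ezh1, Ezh2, Ehmt1, Ehmt2, Suv39h1, Suv39h2, Nsd1, Dot1l and Ash1l, which gave 45 genes of 21896 in the RefSeq table of GRCm38.p6 (mm10). For each gene, every ATAC-seq peak that touched its interval or lay within 10 kb of it was collected. ATAC-seq marks accessible DNA by the insertion of sequencing adapters with the Tn5 transposase. The study compared 1 wild-type culture with 1 culture of DNMT3A-KO cells, which lack the de novo DNA methyltransferase Dnmt3a, and its title places Dnmt3a as a restraint on inflammatory responses of mast cells. Both cultures came from female littermates, aged 3 weeks in the series design and 3 to 4 weeks in the growth protocol. Both were kept for 4 weeks in interleukin 3 without further treatment. The labels do not say how the Dnmt3a allele was made or in which cells it was deleted, nor how many animals gave each culture.

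Lysine methylation of histone tails is written by enzymes that mostly carry a SET domain and removed by the LSD amine oxidases or by JmjC-domain enzymes, the Kdm family. Methylation of H3K4 marks promoters and enhancers, that of H3K36 the bodies of transcribed genes, and that of H3K9 and H3K27 silent chromatin. The Dnmt3 enzymes, which write DNA methylation, also read the state of some of these lysines. Unmethylated H3K4 permits their binding to the histone tail, and methylated H3K36 recruits them to gene bodies. The peaks at these genes describe the accessibility of the genes themselves. Neither the histone marks nor the enzymes' RNA was measured.

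The lists comprised 17170 wild-type and 19684 knockout peaks, with a median of 9 overlapping fragments at the peak summit in both. At Dnmt3a itself, the wild-type list had 6 peaks and the knockout list 5, with 4 shared regions. A wild-type-only region of Dnmt3a at 3897094 to 3897359 on chromosome 12 (−log10 q 21.8, pileup of 21 fragments) had the highest value of all 3952 wild-type-only regions, and no knockout peak overlapped it. The labels do not say which stretch of Dnmt3a was deleted. Of 8 mast cell marker genes, 7 had a wild-type and 7 a knockout peak. All 8 had a peak in at least 1 list, so the 7 were not the same genes in both lists. Peaks were found at 3 and 4 of 6 neutrophil, 4 and 4 of 6 macrophage, 3 and 4 of 6 lymphocyte and 3 and 3 of 6 erythroid markers (wild-type and knockout list). Over all protein-coding genes, 52.3% had a wild-type and 55.5% a knockout peak within 10 kb. The counts of 3 or 4 of 6 lie near these shares. The part of other cell types in any difference below was not tested. There was 1 library per genotype, so no difference between genotypes was set against a spread between animals and none carries a test. In a bulk culture, a site open in fewer cells and a site less open in each cell cannot be told apart.

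Most regions at the methylase and demethylase genes were found in both genotypes. Peaks of the 2 lists that overlapped by at least 1 bp were joined into regions, and the 45 genes had 93 of them. Of these, 63 were shared (67.7%, exact 95% interval 57.3 to 77.1). Another 17 were found in the knockout alone (18.3%, 11.0 to 27.6) and 13 in the wild type alone (14.0%, 7.66 to 22.7). Over all 19078 regions within 10 kb of any protein-coding gene, 56.7% were shared, 16.2% wild-type-only and 27.1% knockout-only. The intervals cover counting error only, and the interval of the shared fraction reached down to near the value over all genes. When regions were matched by summits within 200 bp instead, 59.8% were shared (49.3 to 69.6), against 57.2% over all genes. The 30 unshared regions made up 32.3% of the 93, against 43.3% over all genes. Among them, 56.7% were knockout-only (interval 37.4 to 74.5), a range that holds the 62.6% found over all genes. With both lists held to equal numbers of peaks the balance turned, to 11 knockout-only against 13 wild-type-only regions (45.8% knockout-only), where all genes gave 50.9%. Counted in the gene intervals alone, the members had 7 wild-type-only and 10 knockout-only regions.

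**Figure D1:**
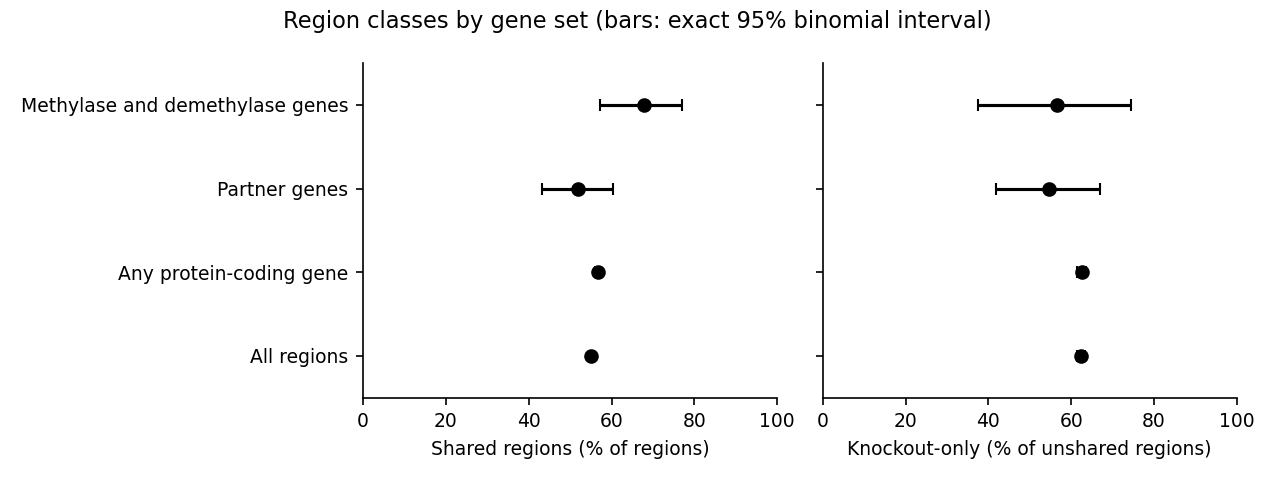
The left panel plots shared regions as a percentage of all regions, and the right panel knockout-only regions as a percentage of unshared regions, for the methylase and demethylase genes, their partner genes, any protein-coding gene and all regions. Points are the shares in the 2 libraries and bars exact 95% binomial intervals, which cover counting error only. The methylase and demethylase genes lie at 67.7% shared and 56.7% knockout-only, with wide intervals.

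A peak in both lists was found at 39 of the 45 members, where all protein-coding genes gave 48.6%. Here and below, shares over all genes are of the 21627 on chromosomes with peaks. Counts out of 45 members include Kdm5d, which lies on none of these chromosomes. Ezh1 and Setd7 had wild-type peaks alone, Setd4 a knockout peak alone, and 3 members had none. In the gene intervals alone, 34 members had a peak in each list taken separately, and the share over all genes was not counted at that distance. Of the 44 members on chromosomes with peaks, 41 had a wild-type and 40 a knockout peak, where all protein-coding genes gave 52.3% and 55.5%. A region of any class was found at 42 of the 45 members, and at 59.2% of all protein-coding genes. Members were also longer, with a median interval of 45.7 kb against 17.3 kb over all genes, and the part of length in these counts was not tested. Shared regions alone were found at 21 members, and at 25.3% of all genes. Another 21 had at least 1 unshared region, against 33.9% of all genes. A knockout-only region was found at 13 of the 44 (29.5%, all genes 24.2%) and a wild-type-only one at 11 (25%, all genes 16.4%). Of the 21 with an unshared region, 10 had more knockout-only regions, 8 had more wild-type-only regions and 3 had as many of each. Over all genes, 7325 had an unshared region, of which 4174 had more knockout-only and 2294 more wild-type-only regions. Of all 21627 genes, with or without an unshared region, those made up 19.3% and 10.6%. No region was found at 3 members: Kdm7a, which encodes a demethylase of H3K9 and H3K27, Setd6, which encodes a methylase of the NF-kB subunit RelA, and Kdm5d. Kdm5d lies on chromosome Y, on which neither list held a peak, and both cultures came from females.

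**Figure D2:**
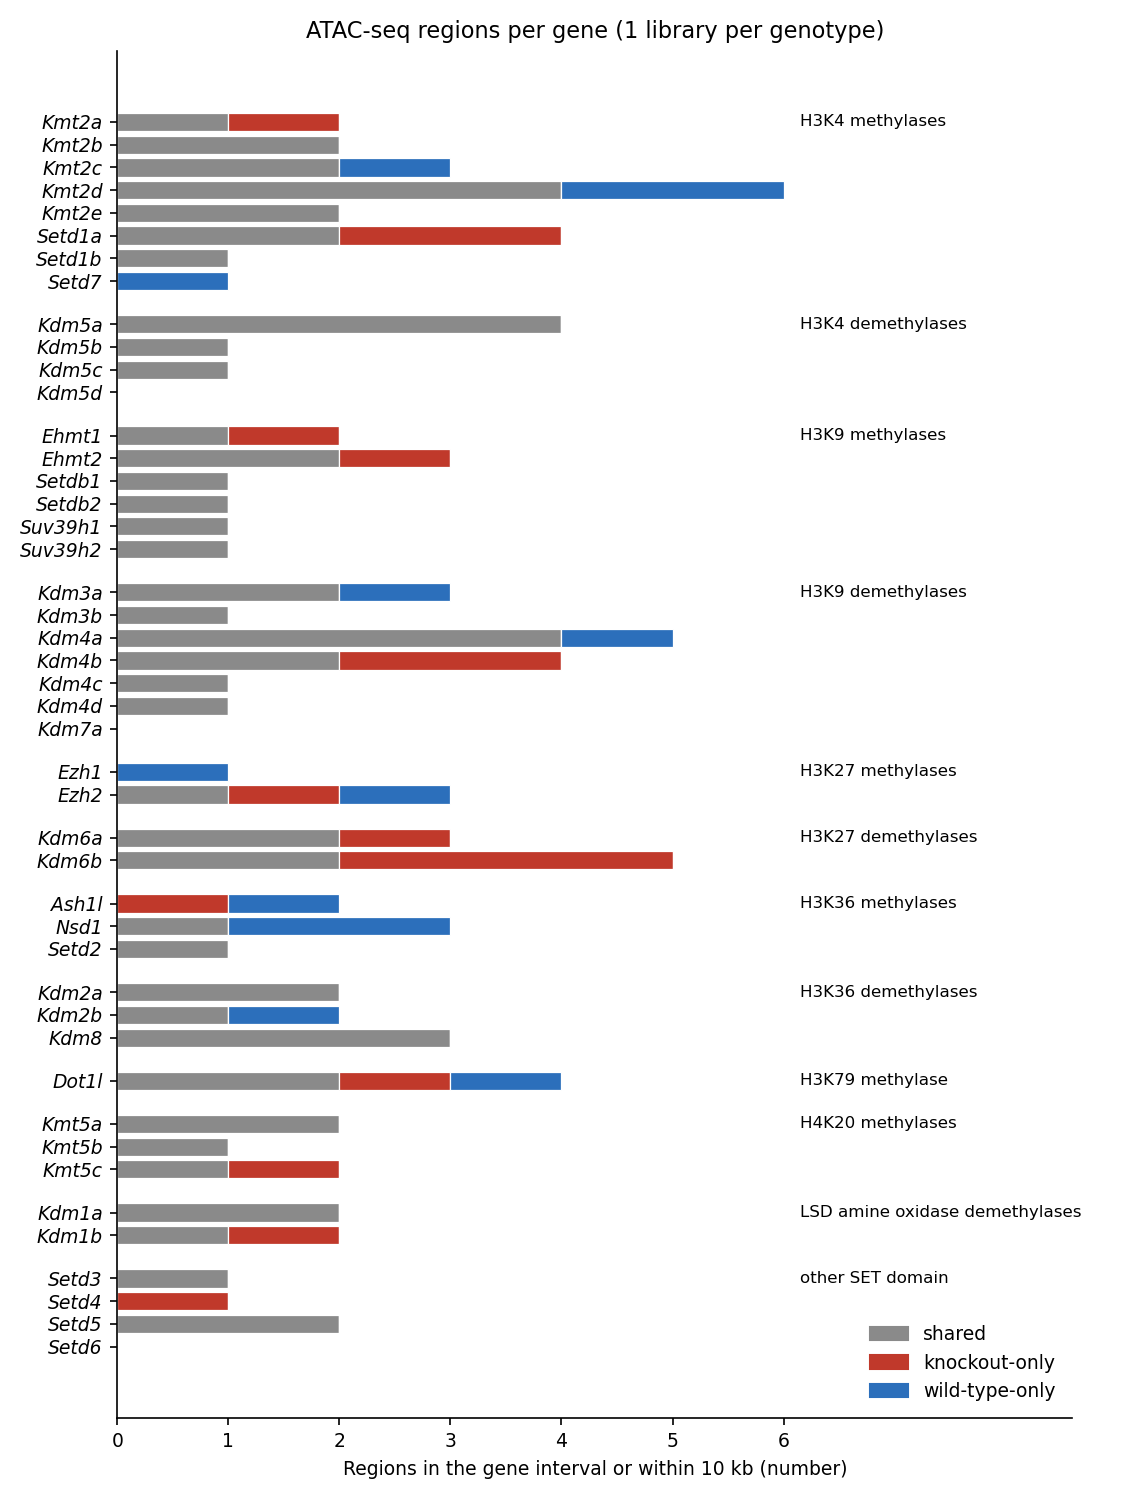
Horizontal bars give the number of regions in each gene interval or within 10 kb of it, for the 45 genes grouped by the residue their product acts on. Grey marks shared, red knockout-only and blue wild-type-only regions. Kmt2d has the longest bar with 6 regions, Kdm6b has 3 knockout-only regions, and Kdm5d, Kdm7a and Setd6 have none.

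The H3K27 demethylase genes carried knockout-only regions and no wild-type-only region. Together, Kdm6a and Kdm6b had 4 shared regions, 4 knockout-only and 0 wild-type-only ones. With 4 unshared regions the exact interval of the knockout-only part ran from 39.8 to 100%, which holds the 62.6% over all genes. Kdm6b (chromosome 11, 69398508 to 69420367) encodes the JmjC enzyme induced by inflammatory stimuli in macrophages. It had 3 knockout-only regions and no wild-type-only region, the largest difference of any member. A difference of 3 or more in that direction was found at 0.892% of all protein-coding genes. As with Kmt2d and Kdm4b below, Kdm6b was picked for its unequal counts, so this share does not measure how unusual it is. Its strongest knockout-only region lay inside the gene at 69401344 to 69401443, with a −log10 q of 7.68 in the authors' list and a summit pileup of 7 fragments, and the nearest wild-type summit was 7.33 kb away. A second, at 69409504 to 69409691 (−log10 q 5.01, pileup 10), was also inside the gene, and here a wild-type summit lay 872 bp away, in a neighbouring shared region. The third, at 69395741 to 69395911 (4.51, pileup 6), lay 2.60 kb outside Kdm6b and within 1 kb of the ends of Cyb5d1, Naa38 and Tmem88, so that it need not belong to Kdm6b. Both shared regions of Kdm6b were inside it. The one at 69408636 to 69408853 had a −log10 q of 15.2 for the wild type and 14.2 for the knockout, with a pileup of 18 in each. The other, at 69418888 to 69419156, had 8.40 and 10.2. With equal numbers of peaks in both lists, the difference at Kdm6b came to 1 region.

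Kdm6a, the X-linked relative that also works in the MLL3 and MLL4 enhancer complexes, had 2 shared regions and 1 knockout-only region (chromosome X, 18254898 to 18254997, −log10 q 6.55, pileup 5), which lay deep inside the gene. One of the shared regions, at 18162272 to 18162651, covered the listed transcription start (−log10 q 12.0 for the wild type and 17.8 for the knockout). These values rank peaks within their own list, and are set side by side here and below without a comparison between lists.

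The H3K27 methylase genes had 4 regions over 2 genes. Ezh2, the main catalytic subunit of Polycomb repressive complex PRC2, had 1 shared region over its start (chromosome 6, 47594988 to 47595233, −log10 q 8.26 for the wild type and 14.4 for the knockout). Beyond its far end it had a knockout-only region at 47527827 to 47528034 (6.05, pileup 7) and a wild-type-only region at 47528076 to 47528180 (5.05, pileup 6). Those peaks lay side by side with summits 261 bp apart, so that both libraries had a peak at this place without an overlap. Ezh1, the alternative catalytic subunit, had a single region, wild-type-only and 6.92 kb outside the gene (chromosome 11, 101233385 to 101233488, 5.02, pileup 5).

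The H3K4 methylase genes had 14 shared regions, 3 knockout-only and 4 wild-type-only ones over 8 genes, and all 8 had a region. Kmt2b, Kmt2e and Setd1b had shared regions alone. Kmt2e is grouped here by family, since its SET domain is generally held to lack H3K4 methylase activity, and it gave 2 of the 14 shared regions. Kmt2d (chromosome 15, 98831669 to 98874077), which encodes the MLL4 enzyme of enhancers, had 4 shared and 2 wild-type-only regions and no knockout-only region. A difference of 2 or more towards the wild type was found at 1.35% of all protein-coding genes. Its wild-type-only region at 98832810 to 98832961 had a −log10 q of 10.2 and a pileup of 13, the strongest wild-type-only peak at any member. It lay 1.14 kb inside the end of Kmt2d opposite to the start, and the nearest knockout summit was 1365 bp away. The second, at 98881147 to 98881248 (6.99, pileup 8), lay 7.07 kb outside the gene beside the ends of Rhebl1 and Dhh. A knockout summit of an adjacent shared region was only 163 bp from it, and the 2 peaks counted as shared when summits within 200 bp were matched.

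Setd1a, a catalytic subunit of a COMPASS complex that methylates H3K4 at promoters (chromosome 7, 127777389 to 127800122), had the opposite balance, with 2 shared and 2 knockout-only regions. The knockout list had a peak at 127777004 to 127777142, 247 bp before the start of Setd1a, with a −log10 q of 7.45 and a pileup of 8. The nearest wild-type summit was 7.23 kb away. Its other knockout-only region, at 127768980 to 127769079 (5.01, pileup 6), lay 8.31 kb outside the gene at the ends of Fbxl19 and Orai3, with a wild-type summit 791 bp away. Both lie outside the gene interval, so that Setd1a had no unshared region within the interval itself. A shared region lay 378 bp beyond its far end, which is also an end of Hsd3b7 (7.40 for the wild type and 16.2 for the knockout).

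Kmt2a, the MLL1 gene that is rearranged in leukaemia, had a shared region 28 bp upstream of its listed start (chromosome 9, 44881317 to 44881684, −log10 q 14.0 and 17.8, wild-type and knockout). A knockout-only region lay 3.95 kb beyond its other end (44799307 to 44799406, 5.09, pileup 5), at the ends of Tmem25 and Ttc36. Kmt2c, which encodes MLL3, had 2 shared regions and a wild-type-only region inside the gene (chromosome 5, 25356055 to 25356195, 8.49, pileup 7). Setd7, a monomethylase of H3K4 and of non-histone proteins, had 1 region, which was wild-type-only (chromosome 3, 51560615 to 51560769, 5.71, pileup 10) and lay 54 bp downstream of its start.

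The H3K4 demethylase genes had 6 regions, and all 6 were shared. With 6 regions the exact interval of the shared part ran from 54.1 to 100%, which holds the 56.7% over all genes. Kdm5a had 4 of them, a pair at its lower end, beside an end of Ccdc77, and one on each side of the gene (chromosome 6, 120364099 to 120444574). The one on the lower side overlapped Ccdc77. The region 8.57 kb beyond its upper end was the strongest (120453145 to 120453412), with a −log10 q of 22.8 for the wild type and 24.5 for the knockout. Kdm5b had 1 shared region, 2.93 kb before its start, which overlapped Mgat4e. The X-linked Kdm5c had 1, within 232 bp of its start.

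The H3K9 methylase genes had 7 shared regions, 2 knockout-only and 0 wild-type-only ones. With 2 unshared regions the exact interval of the knockout-only part ran from 15.8 to 100%, which holds the 62.6% over all genes. Ehmt1 and Ehmt2 encode GLP and G9a, the paired enzymes of H3K9 dimethylation in euchromatin. At Ehmt1 (chromosome 2, 24790769 to 24919643), a knockout-only region covered the start (24919574 to 24919780, −log10 q 9.95, pileup 10), and the nearest wild-type summit was 15.6 kb away. The other region of Ehmt1, deep inside the gene at 24871014 to 24871232, was shared (8.24 and 16.2). Ehmt2 had 2 shared regions near the end of its neighbour Zbtb12 and a weak knockout-only region 4.62 kb beyond its far end (chromosome 17, 34918691 to 34918803, 4.92, pileup 5). That knockout-only region overlapped Slc44a4. Setdb1, Setdb2, Suv39h1 and Suv39h2 each had 1 shared region. Those of Setdb2, Suv39h1 and Suv39h2 covered a start, whereas that of Setdb1, the gene of the enzyme brought to retroelements by Trim28, lay 8.26 kb beyond its far end at the ends of Anxa9 and Cers2.

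The H3K9 demethylase genes had 11 shared regions, 2 knockout-only and 2 wild-type-only ones over 7 genes. Kdm4b (chromosome 17, 56325970 to 56403774), a JmjC enzyme for H3K9 and H3K36, had 2 shared and 2 knockout-only regions. Differences of 2 or more towards the knockout were found at 4.2% of all protein-coding genes. Both knockout-only regions were inside the gene. The first, at 56350862 to 56350983, had a −log10 q of 8.17 and a pileup of 8, and the second, at 56389961 to 56390060, had 5.96 and 5. No wild-type summit lay within 15.7 kb of the first or 35.7 kb of the second. The shared region over the lower end of Kdm4b, at 56325586 to 56326057, was among the strongest at any member (28.6 for the wild type and 31.0 for the knockout). Kdm4a, its relative on chromosome 4, had 4 shared regions and a weak wild-type-only one 8.94 kb away (118127923 to 118128022, 4.22, pileup 4). That wild-type-only region overlapped St3gal3. The shared region over the start of Kdm4a (118179929 to 118180260) had a −log10 q of 28.8 and 28.9. Kdm3a had 2 shared regions at its start and a wild-type-only region inside the gene (chromosome 6, 71627437 to 71627543, 5.20, pileup 5). Kdm3b, Kdm4c and Kdm4d each had 1 shared region and no other.

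The H3K36 methylase genes had 2 shared regions, 1 knockout-only and 3 wild-type-only ones. Nsd1 (chromosome 13, 55209782 to 55318325), the gene of a dimethylase of H3K36, had 1 shared region, 1.58 kb inside its lower end, and 2 wild-type-only regions beyond its upper end. The nearer of these, at 55321949 to 55322063 (−log10 q 5.63, pileup 5), lay 3.62 kb from Nsd1 at the ends of Rab24 and Prelid1. The farther, at 55327778 to 55327942 (8.25, pileup 11), overlapped Mxd3, with a knockout summit 2.05 kb from it. It lay 9.45 kb away and was the last region inside the 10 kb limit. The next region outside the limit lay 10601 bp from Ash1l and was wild-type-only. By assignment to the nearest gene, Nsd1 had no unshared region. Ash1l, which encodes a Trithorax-type methylase of H3K36, had no shared region. A weak wild-type-only region covered its lower end, which is within 1 kb of an end of Dap3 (chromosome 3, 88950312 to 88950438, 4.44, pileup 6). A knockout-only region lay deep inside Ash1l (89013909 to 89014042, 8.03, pileup 6), and the nearest wild-type summit was 63.6 kb away. Setd2, the trimethylase of H3K36, had 1 shared region 9 bp outside its lower end (chromosome 9, 110532271 to 110532491, 10.9 and 14.9).

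**Figure D3:**
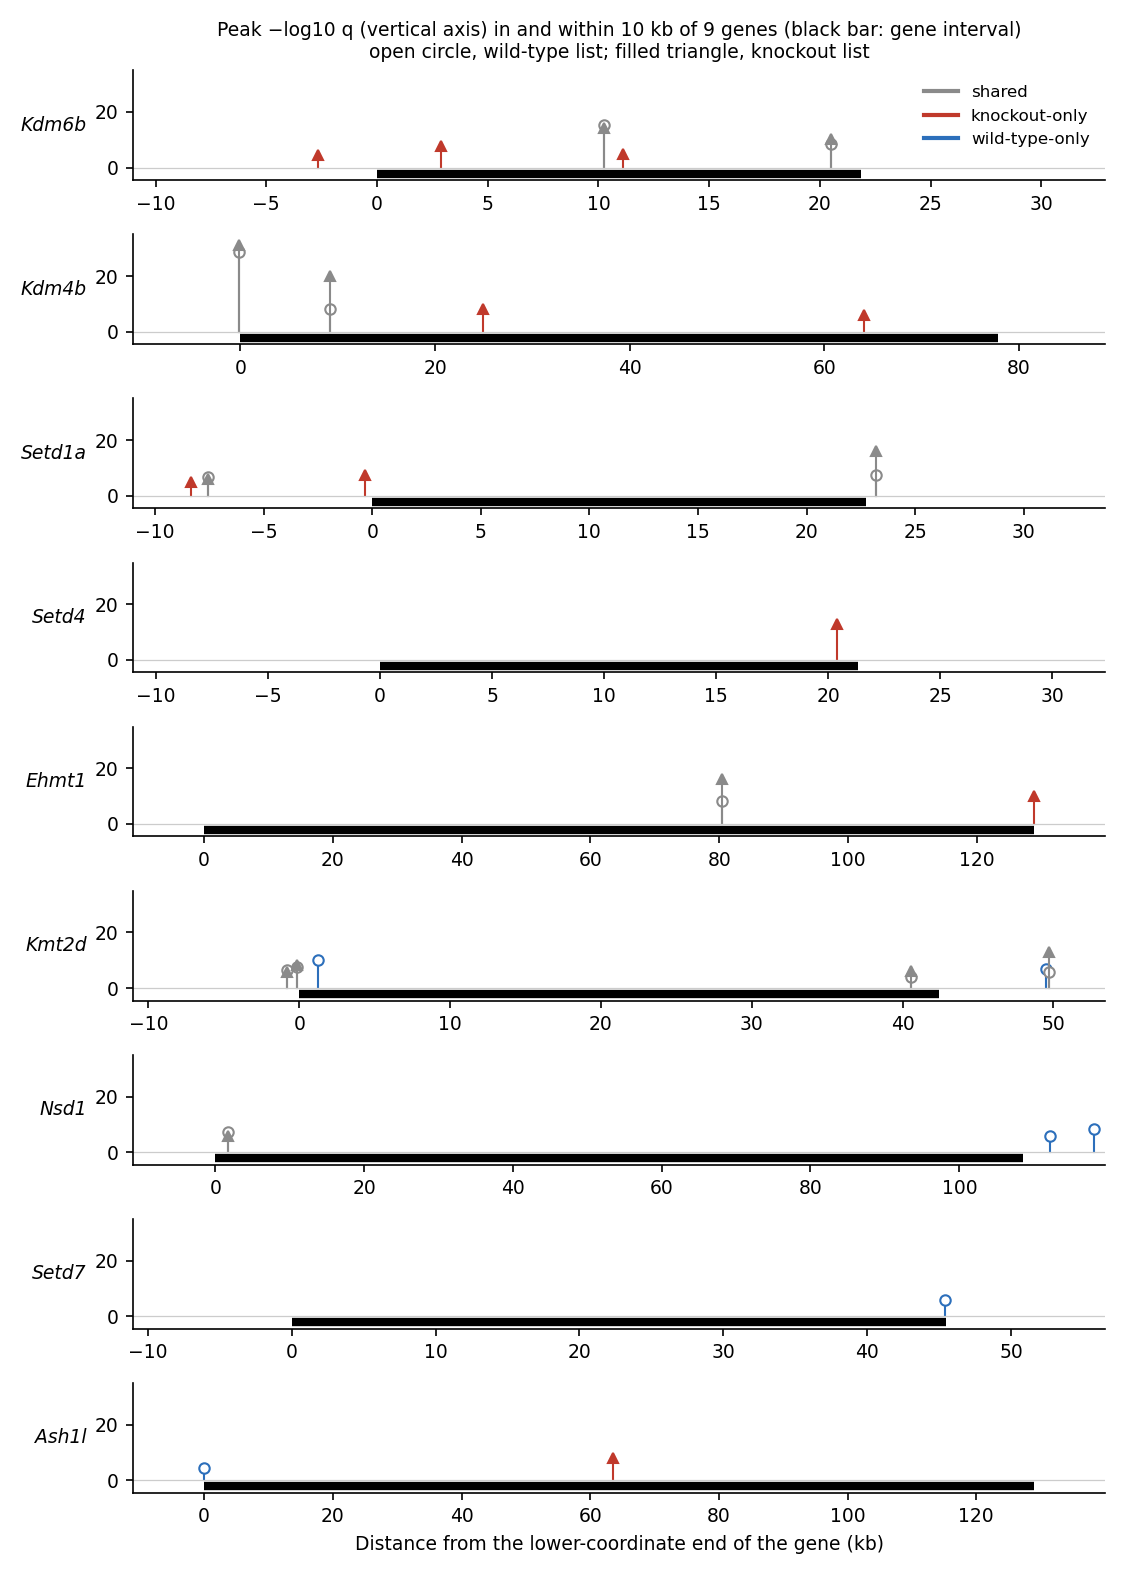
Each panel shows 1 of 9 genes, with the distance from its lower-coordinate end in kb on the horizontal axis, a scale of its own for each gene, and the deposited −log10 q of each peak on the vertical axis. Open circles are wild-type and filled triangles knockout peaks, grey for shared, red for knockout-only and blue for wild-type-only regions, and the black bar is the gene. Setd4 has 1 knockout-only peak and Setd7 1 wild-type-only peak, while the 2 wild-type-only peaks of Nsd1 lie beyond its upper end.

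Among the H3K36 demethylase genes, Kdm2a and Kdm8, the latter debated as a histone demethylase, had shared regions alone, 2 and 3. Kdm2b, a CpG-binding partner of a variant Polycomb complex PRC1, had 1 shared region over an internal start and a wild-type-only region inside the gene (chromosome 5, 122951722 to 122951826, −log10 q 5.43, pileup 6). Dot1l, the methylase of H3K79 on transcribed genes, had 2 shared regions, a knockout-only region (chromosome 10, 80763554 to 80763653, 5.49, pileup 5) and a wild-type-only region (80774712 to 80774824, 5.41, pileup 5), both inside the gene and of the same pileup. Of the H4K20 methylase genes, Kmt5a had 2 and Kmt5b 1 shared region and no other. Kmt5c had a shared region over its start and a knockout-only one 5.58 kb beyond its far end, at the ends of Cox6b2 and Fam71e2 (chromosome 7, 4753089 to 4753188, 5.09, pileup 5).

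The LSD genes encode the flavin-dependent demethylases. Kdm1a (LSD1) had 2 shared regions, and the one inside the gene was the stronger (chromosome 4, 136570149 to 136570354, −log10 q 25.9 for the wild type and 24.7 for the knockout). At Kdm1b (LSD2), a shared region covered the start and was one of the strongest at any member (chromosome 13, 47043156 to 47043601, 28.1 and 37.8). This region also lies within 1 kb of an end of Tpmt. Kdm1b had a knockout-only region inside the gene too (47056275 to 47056381, 5.96, pileup 5). Setd3, which encodes an actin histidine methylase, had 1 shared region, and Setd5 had 2. The fifth of the strongest shared regions by the lower of its 2 values, after those of Kdm4a, Kdm4b, Kdm1b and Kdm1a, lay 8.40 kb beyond the far end of Kdm8 (chromosome 7, 125472048 to 125472620, 27.7 and 23.0). It overlapped Nsmce1, so that it need not belong to Kdm8.

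Setd4 encodes a SET domain protein whose substrates are less settled. Its single region was knockout-only (chromosome 16, 93603760 to 93603901), with a −log10 q of 12.9 and a pileup of 13, the strongest knockout-only peak at any member. It covered the listed start of Setd4, 890 bp inside the upper end of the gene, and no wild-type summit lay within 39.5 kb. Of the 30 unshared regions at the members, 2 had a −log10 q of at least 10, this one and the wild-type-only region inside Kmt2d, where 8.9% of all unshared regions passed that limit.

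Gene ends carried mostly shared regions. Of the 93 regions, 38 (40.9%) lay within 1 kb of either end of their member gene, where all genes gave 36.9%, and 33 of these were shared (86.8%, interval 71.9 to 95.6). Over all genes, regions at an end were shared in 68.1%. Away from the ends, 18 of 31 regions inside members and 12 of 24 outside them were shared (58.1% and 50%), against 48.8% and 57.1% over all genes. Of the shared regions 52.4% (33 of 63) were at an end, of the knockout-only 17.6% (3 of 17) and of the wild-type-only 15.4% (2 of 13), where all genes gave 43.1%, 27% and 30.3%. An end of another protein-coding gene lay within 1 kb of 26 of the 93 regions and of 7 of the 30 unshared ones. The same shares over all genes were not counted. Of the 45 members, 30 had an end region of any class and 26 a shared one, where all genes gave 38.4% and 28.6%. At 4 members the end had an unshared region and no shared one, namely Setd4 and Ehmt1 (knockout-only) and Setd7 and Ash1l (wild-type-only), where 9.8% of all protein-coding genes were in that state.

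RefSeq promoter sequences of GRCm38.p6 were at hand for 35 of the 45 members, with 47 listed starts. Of these 35 members, 27 had a region within 1 kb of a listed start, and at 23 it was shared. The same count over all listed starts was not made, so neither number can be called particular to these genes. The 250 bases before a start held a median of 21 CG dinucleotides, the sites Dnmt3a can methylate, against 10 over 21262 listed starts of protein-coding genes. The median was 23.5 at the 28 member starts with a shared region and 13 at the 15 starts with none. It was 25 at the 3 with a knockout-only region, and the 1 with a wild-type-only region had 17. Methylation was not measured.

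The 250 bases before the start are given 5′ to 3′ for the members whose start had an unshared region, for Kdm1b, whose start was open in both libraries, and for Kmt2d. Capitals mark matches, on either strand, to the letters GGGCGG of the GC box, CCAAT of the CCAAT box, CCGGAAG of ETS factors, TGACGTCA of the cyclic AMP response element (CRE), CACGTG of the E-box, AGATAA of GATA factors, TGTGGT of RUNX factors and TGANTCA of AP-1.
Setd4, chr16:93603816-93604065, minus strand: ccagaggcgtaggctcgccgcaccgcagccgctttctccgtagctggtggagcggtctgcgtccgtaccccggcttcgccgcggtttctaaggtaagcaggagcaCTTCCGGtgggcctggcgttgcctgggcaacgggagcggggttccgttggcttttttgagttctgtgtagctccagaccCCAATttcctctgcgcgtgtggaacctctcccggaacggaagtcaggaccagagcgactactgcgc
Ehmt1, chr2:24919610-24919859, minus strand: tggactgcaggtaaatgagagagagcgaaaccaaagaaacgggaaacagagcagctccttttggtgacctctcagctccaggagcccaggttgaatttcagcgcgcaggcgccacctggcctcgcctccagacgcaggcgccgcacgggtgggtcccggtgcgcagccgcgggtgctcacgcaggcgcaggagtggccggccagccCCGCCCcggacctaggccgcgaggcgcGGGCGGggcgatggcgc
Setd1a, chr7:127777139-127777388, plus strand: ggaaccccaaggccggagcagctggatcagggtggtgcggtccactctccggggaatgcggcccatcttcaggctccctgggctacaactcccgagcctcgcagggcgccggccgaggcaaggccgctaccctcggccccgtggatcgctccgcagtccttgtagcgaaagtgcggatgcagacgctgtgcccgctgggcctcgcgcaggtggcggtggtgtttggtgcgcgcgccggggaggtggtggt
Setd7, chr3:51560824-51561073, minus strand: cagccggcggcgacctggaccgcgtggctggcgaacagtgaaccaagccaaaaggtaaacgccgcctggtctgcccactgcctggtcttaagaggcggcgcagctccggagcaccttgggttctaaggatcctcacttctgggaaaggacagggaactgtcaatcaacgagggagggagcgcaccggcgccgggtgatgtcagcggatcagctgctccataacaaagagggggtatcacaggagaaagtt
Kdm1b, chr13:47043249-47043498, plus strand: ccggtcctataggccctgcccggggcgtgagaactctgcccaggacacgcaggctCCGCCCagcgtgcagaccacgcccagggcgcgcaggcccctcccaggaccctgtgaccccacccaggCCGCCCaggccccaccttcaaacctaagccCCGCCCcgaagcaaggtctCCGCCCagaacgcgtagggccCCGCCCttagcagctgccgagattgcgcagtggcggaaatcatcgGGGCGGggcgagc
Kmt2d, chr15:98871206-98871455, minus strand: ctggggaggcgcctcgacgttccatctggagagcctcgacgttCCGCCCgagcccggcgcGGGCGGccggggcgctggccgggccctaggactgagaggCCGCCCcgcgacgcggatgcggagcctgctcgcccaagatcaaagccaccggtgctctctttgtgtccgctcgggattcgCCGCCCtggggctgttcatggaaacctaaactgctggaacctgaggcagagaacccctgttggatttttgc

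The knockout-only region of Setd4 covered the 86 bases of this window next to the start, which hold a CCAAT match. The ETS match lies outside the covered part, from 145 to 139 bases before the start. At Ehmt1 the knockout-only region covered the last 171 bases, with 2 GC boxes. The knockout-only region of Setd1a reached only 4 bases into the window, from 250 to 247 before the start, and the wild-type-only region of Setd7 began downstream of it. Neither window had a match. The shared region of Kdm1b covered all 250 bases, with 6 GC boxes. The 4 GC boxes before the listed start of Kmt2d lay in no region. That start, at 98871205, is inside the gene interval, and a shared region at 98872119 to 98872306 lay 914 bp upstream of it. GC boxes were found at 63.8% of member starts and at 42.6% of all starts. The other shares were 40.4% and 35.4% for CCAAT, 14.9% and 8.98% for the ETS letters, 10.6% and 8.81% for GATA, 12.8% and 12.4% for RUNX, 8.51% and 6.63% for the E-box, 6.38% and 6.13% for AP-1, and 2.13% and 1.92% for the CRE. A match describes these letters in this window and is not a binding site.

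Unshared peaks at the members were weak. The 17 knockout-only peaks had a median −log10 q of 5.96 (4.51 to 12.9) and a median pileup of 6 fragments, and the 13 wild-type-only peaks 5.43 (4.22 to 10.2) and 6. Over all regions, those medians were 6.48 and 6.08. The 63 shared regions had medians of 10.4 for the wild type and 13.8 for the knockout, against 10.0 and 11.5 over all shared regions. Of the 30 unshared regions, 26 had a −log10 q of at least 5, where 79.3% of all unshared regions did. A summit of the other list lay within 1 kb of 5 of the 30, where the share over all unshared regions was 14.6%. They were the adjacent pair at Ezh2 and a region each of Kmt2d, Kdm6b and Setd1a. Fragments below the calling limit are not in the lists, so that at a pileup of 5 or 6 the lack of a peak in the other list may lie within counting error.

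**Figure D4:**
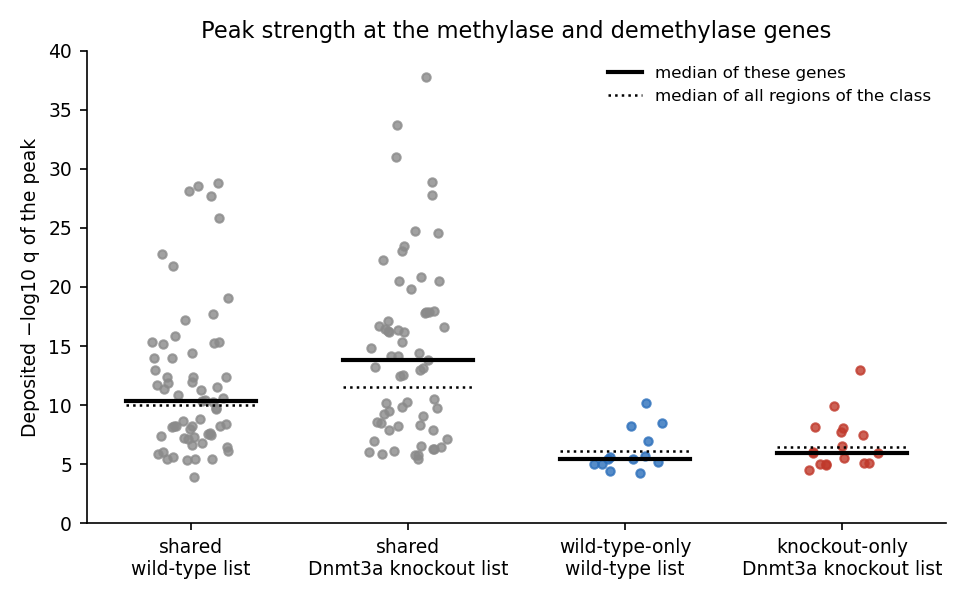
Each point is a peak at a methylase or demethylase gene, with its deposited −log10 q on the vertical axis. Columns separate shared regions in each list, wild-type-only and knockout-only regions; solid lines are medians of the points and dotted lines medians of all regions of the class. Unshared peaks sit near 5 to 6, and the highest of them are Setd4 at 12.9 in the knockout and Kmt2d at 10.2 in the wild-type list.

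Demethylase and methylase genes are set side by side as descriptions, since the counts are small. The 18 Kdm genes had 30 shared regions, 7 knockout-only and 3 wild-type-only ones. The other 27 genes had 33 shared regions, 10 knockout-only and 10 wild-type-only ones. Knockout-only regions were 70% of the unshared at the Kdm genes (interval 34.8 to 93.3) and 50% at the others (27.2 to 72.8). Both intervals hold the 62.6% found over all genes.

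Regions were counted in the same way at 52 partner genes, which encode subunits of the complexes of these enzymes and related enzymes. Of their 137 regions, 71 were shared (51.8%, interval 43.1 to 60.4), 30 wild-type-only and 36 knockout-only. The interval holds the 56.7% over all genes. It overlaps that of the members, but an overlap of intervals does not settle whether members and partners differ, which was not tested. Of the 66 unshared regions 54.5% were knockout-only (41.8 to 66.9), a range that holds the 62.6% over all genes. Partners of Ezh2 in PRC2 had 11 shared regions, 5 knockout-only and 0 wild-type-only ones, 2 of the knockout-only ones inside Jarid2, a PRC2 recruiter. Those 2 had a −log10 q of 4.01 and 6.92. Partners of the COMPASS methylases had 15, 5 and 7, with 2 knockout-only regions side by side 267 and 657 bp outside Hcfc1, which encodes a host cell factor that binds Setd1a. Genes of the Dot1l complex had 10, 11 and 9. Among them, Aff1 had 2 wild-type-only and 4 knockout-only regions. The −log10 q of the latter was 3.90, 4.09, 6.48 and 9.60. Mllt10, which encodes the AF10 cofactor of Dot1l, had 3 wild-type-only and 1 knockout-only regions, all inside the gene. Its wild-type-only region at 18064460 to 18064559 and its knockout-only region at 18064715 to 18064814 lay side by side without an overlap. Its other 2 wild-type-only regions, at 18169451 to 18169560 and 18169747 to 18169860, were also side by side, so that the difference came from 1 place. Jarid2, Aff1 and Mllt10 are also long, 191, 163 and 157 kb against a median of 30.0 kb over the partners. Partner genes are named here for a difference of 2 or more. Over all genes, 4.2% had one towards the knockout and 1.35% towards the wild type. H3K9 readers and co-repressors had 10, 5 and 2, methylases outside the symbol rule 16, 6 and 7, and demethylases outside it with their partners 9, 4 and 5. No interval was computed for the separate partner lists, whose counts are small.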

How the data were processed

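Per the labels' protocols, cultures held over 95% mast cells, nuclei released with 0.1% Igepal were cut by a home-made Tn5, and 50 bp single reads were taken to a stated 10 M. The submitters' processing notes name Trimmomatic, Bowtie2, MACS2, mm10 and GRCm38. Their versions and settings, and whether reads were moved to the Tn5 insertion point, which would displace peak edges by a few bases, are not stated in these sources. The authors deposited 1 peak list per sample, with a score (10 times the −log10 q), a fold enrichment ratio, the −log10 p-value and −log10 q-value, and the summit position. From the deposited fold and −log10 p, read as MACS2 defines them, a whole-number summit pileup was recovered for 100% of peaks (tolerance 0.001).

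Peaks overlapping by at least 1 bp were joined into regions over the whole lists, and regions within 10 kb of a gene interval were assigned to it, to several genes where intervals allow. Genes came from the RefSeq table of GRCm38.p6, 21627 of them on chromosomes with peaks. The table gives no strand, exons or introns; starts and strands came from the RefSeq promoter table. Python 3.11.15, NumPy 2.4.6, pandas 2.3.3, SciPy 1.17.1 and matplotlib 3.10.9 were used. Shares have exact (Clopper-Pearson) 95% intervals. There was no test between genotypes. The steps were tested on simulated data (1500 pileups and 3000 sites, all recovered), which checks the code only.

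Members, role groups, partner and marker lists were chosen with earlier results of these data known. Named with positions were members with an unshared peak of −log10 q of at least 5, the 5 members with the most unequal numbers of unshared regions, the 5 strongest shared regions, members with no region, and partners whose counts differed by at least 2. Others were named after their values were seen. Of the promoters, those of Setd4, Ehmt1, Setd7 and Kdm1b were chosen in that way. Alternatives were stricter peak limits, equal list lengths, other overlap rules, other distances, nearest-gene assignment and no chromosome X.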

Additional observations from a re-analysis of the deposited data

How the results depend on the processing

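No paired analysis was possible because there was 1 library of each genotype. The member counts and shares were recomputed under 10 alternatives, and 61 of 73 values stayed within 1.5 times the reported count or inside the reported interval. Equal numbers of peaks gave 11 knockout-only regions in place of 17, with the wild-type-only count at 13, so that the balance turned. A reciprocal overlap of 50% gave 23 wild-type-only regions in place of 13 and a shared part of 55.2% (45.2 to 65.0), where all genes gave 46.7%. Matching summits within 200 bp gave 59.8% shared (49.3 to 69.6), where all genes gave 57.2%, so that the intervals under both rules hold the value over all genes. Gene intervals alone gave 7 wild-type-only and 10 knockout-only regions, and assignment to the nearest protein-coding gene 8 and 11. With 50 kb on each side there were 128 shared regions, 38 knockout-only and 27 wild-type-only ones, with 19.7% at an end. Ends of 2.5 kb held 51.6% of regions. The settings on gene intervals, nearest genes, 50 kb and 2.5 kb change the stretch counted, which sets their shifts; the cause of the others was not tested. The differences at Kdm6b (1 to 3), Kmt2d (-3 to -1), Kdm4b (1 to 2), Setd1a (0 to 2) and Nsd1 (-2 to 0) turned direction under none of these alternatives. Median pileups of 6 in unshared peaks limit what the absence of a partner peak can show.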
